A study of Mus musculus with 15 samples.

Results

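The genes described here are *Trp53*, which encodes the transcription factor p53, and a set of regulators of p53, genes that p53 switches on and genes of the response to DNA damage. They were listed by name and not by a cutoff on measured values, with earlier results of these data known. All 32 were found among the 23132 genes kept from the count table. They were measured by RNA sequencing of 15 mouse libraries, each from 1 male foetus on a C57BL/6 background, to ask whether their mRNA levels changed after loss of PHF6, a chromatin-associated protein that has been linked to DNA repair. The E15.5 cortex was dissected and used directly from 3 Phf6+/Y and 5 Phf6-/Y foetuses of litters 1 to 3, in which the germline allele lacks *Phf6* in every cell type. E16.5 cortical neurons were dissociated and cultured from 3 Phf6+/Y;Nes-creTg/+ foetuses, called control neurons here, and 4 Phf6lox/Y;Nes-creTg/+ foetuses, called deleted neurons here, of litters 4 to 7. All neuron cultures carried the Nes-cre transgene, which expresses Cre in neural progenitors and their progeny, so that cells of other origin in the deleted cultures would keep *Phf6*, whereas the cortices carried no Nes-cre. Litter 7 gave 1 deleted culture and no control.

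The transcription factor p53 is kept low in unstressed cells by MDM2, which marks it for degradation, and by the related protein MDM4. After DNA damage or other stress it accumulates and raises the transcription of genes that halt the cell cycle, repair DNA, alter metabolism or start programmed cell death, and *Mdm2* itself, which closes a feedback loop. Because p53 is controlled mainly at the level of the protein, its activity is usually read from its target genes rather than from *Trp53* mRNA. In the foetal brain, p53 is best known for removing neural progenitors and young neurons with damaged DNA.

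The p53 response element, a pair of decamers, was searched on both strands within 300 bases around annotated starts, from 250 bases before to 50 bases after, with a gap of at most 13 bases between the decamers. RefSeq windows (GRCm38.p6) were matched for 24 of the 32 genes, the others being *Ddb2*, *Perp*, *Pmaip1*, *Rrm2b*, *Tnfrsf10b*, *Trp53inp1*, *Xpc* and *Zmat3*. A match without a mismatch was found for *Cdkn1a*, whereas 0.0731% of all 32851 windows, and 0.074% of the 27025 genes with windows, held one. With up to 1 mismatch *Ccng1* was added (0.627% of all windows and 0.718% of genes with windows). With up to 2 mismatches *Bax* and *Sesn1* were added (4.09% of all windows and 4.71% of genes with windows). The 250 bases before the start are shown for these 4 genes because their windows come closest to the p53 response element, with 0 mismatches in *Cdkn1a*, 1 in *Ccng1* and 2 each in *Bax* and *Sesn1*, with the matched decamers in capitals and the strand of the gene printed 5′ to 3′. The windows are chr17:29090729-29090978 (plus strand) for *Cdkn1a*, chr11:40755287-40755536 (minus) for *Ccng1*, chr7:45466899-45467148 (minus) for *Bax* and chr10:41887189-41887438 (plus, before the start of a shorter transcript inside the gene) for *Sesn1*.
Cdkn1a: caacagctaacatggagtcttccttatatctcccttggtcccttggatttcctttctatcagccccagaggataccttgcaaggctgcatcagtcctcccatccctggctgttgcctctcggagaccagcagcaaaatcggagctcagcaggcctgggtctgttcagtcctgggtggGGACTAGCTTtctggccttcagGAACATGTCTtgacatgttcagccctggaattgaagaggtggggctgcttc
Ccng1: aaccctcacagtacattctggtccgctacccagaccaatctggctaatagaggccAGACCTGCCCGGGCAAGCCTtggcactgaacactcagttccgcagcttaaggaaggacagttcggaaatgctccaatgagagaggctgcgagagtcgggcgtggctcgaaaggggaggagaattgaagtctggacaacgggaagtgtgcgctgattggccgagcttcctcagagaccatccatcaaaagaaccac
Bax: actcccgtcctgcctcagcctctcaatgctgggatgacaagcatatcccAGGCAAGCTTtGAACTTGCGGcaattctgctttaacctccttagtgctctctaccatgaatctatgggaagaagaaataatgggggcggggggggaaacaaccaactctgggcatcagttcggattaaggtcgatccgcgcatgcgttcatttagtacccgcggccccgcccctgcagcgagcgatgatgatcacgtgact
Sesn1: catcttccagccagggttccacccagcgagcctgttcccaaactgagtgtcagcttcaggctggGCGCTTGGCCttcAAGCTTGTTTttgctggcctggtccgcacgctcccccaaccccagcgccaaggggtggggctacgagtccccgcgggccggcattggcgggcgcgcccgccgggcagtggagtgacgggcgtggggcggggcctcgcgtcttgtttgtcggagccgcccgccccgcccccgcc
A match describes the letters in the window, and neither occupancy by p53 nor sites farther from the start, where many known p53 sites lie, were measured. The values of these 4 genes are given below.

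Total counts per library ranged from 22790294 to 31157700 in the cortex and from 16858007 to 29842150 in the neurons, and levels are given as CPM, that is counts scaled by library size, on 1 TMM scale over all libraries. *Phf6* was at 149, 177 and 191 CPM in Phf6+/Y and between 42.4 and 55.2 CPM in Phf6-/Y cortices, and at 228, 254 and 259 CPM in control and between 59.9 and 85.8 CPM in deleted neurons, without overlap in either tissue. The reads are counted over the whole gene and not only over the deleted exons 4 and 5. One cortex stood apart, since the summed level of 5 markers of excitatory cortical neurons was 1146 CPM in Phf6-/Y replicate 1 (litter 3) and 1905 to 2119 CPM in the other 4 Phf6-/Y cortices. Summed markers of meningeal fibroblasts varied from 11.9 to 519 CPM and of choroid plexus from 2.13 to 475 CPM among the cortices of both genotypes. In bulk samples such as these, fewer cells of a type and less RNA per cell cannot be told apart.

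Levels per gene length (RPKM) placed the p53 genes in the middle range of these tissues. Their median level was 9.68 RPKM in Phf6+/Y cortex, 9.33 in Phf6-/Y cortex, 10.0 in control neurons and 10.4 in deleted neurons, and that of all genes tested was 8.58 to 9.25 RPKM. *Bax*, which encodes the pore-forming protein that permeabilises mitochondria in apoptosis, had the highest level per length in all 4 groups, at 84.6 ± 5.09 RPKM (SD, n = 3) in Phf6+/Y cortex and 95.5 ± 12.9 RPKM (SD, n = 3) in control neurons. *Trp53* was the gene with the fourth highest level per length in Phf6+/Y cortex, at 51.4 ± 7.91 RPKM (SD, n = 3).

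At the other end, *Cdkn2a*, which encodes the MDM2 inhibitor p19ARF and the cell cycle inhibitor p16, had at most 3 counts in any library. *Gdf15*, a secreted stress factor, had at most 14 counts, and both genes were below the filter in every comparison. *Fas*, a death receptor, had 0 to 5 counts in the cortices and 4 to 36 in the neurons, and passed the filter only where neurons were included. Thus 29 of the 32 genes were tested for genotype in the cortex and 30 in the neurons.

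**Figure D1:**
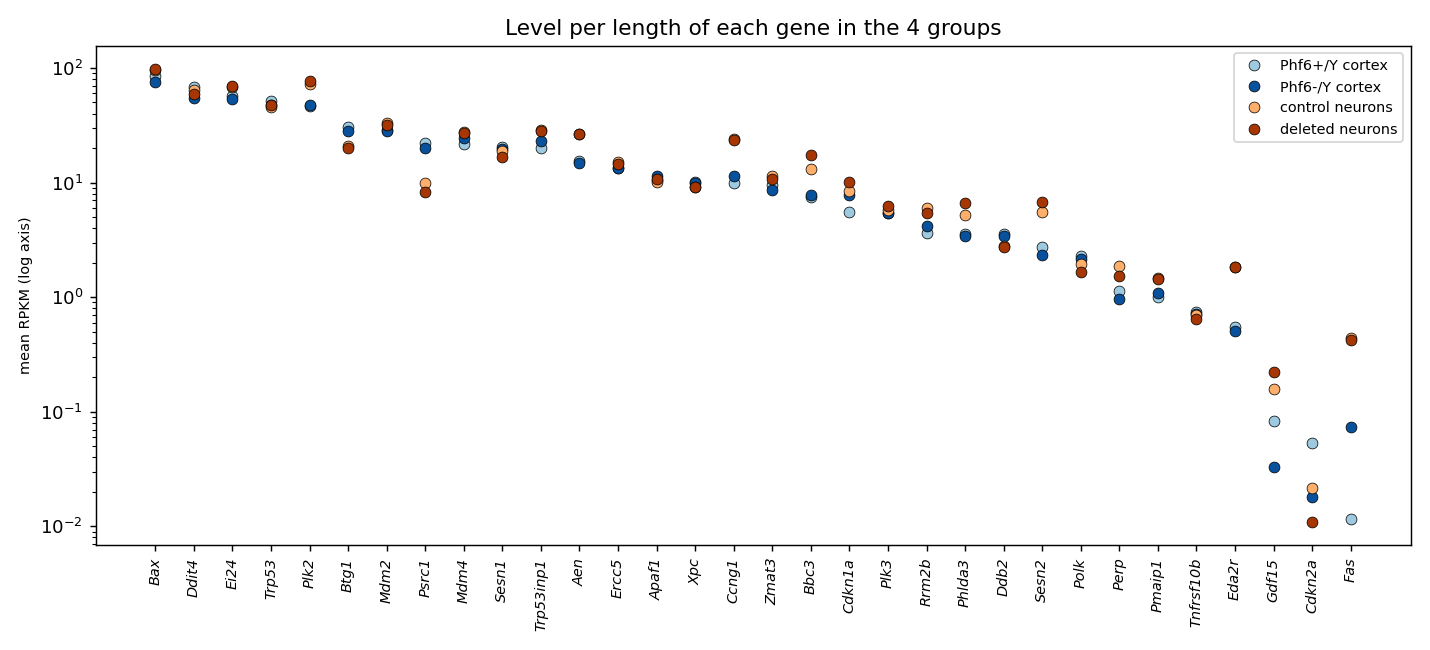
Mean RPKM of each gene on a log axis in the 4 groups (points), ordered by the level in Phf6+/Y cortex. *Bax* is highest in every group, and *Gdf15*, *Cdkn2a* and *Fas* lie below the other genes.

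The first comparison asked whether the p53 genes changed in the Phf6-/Y cortex at E15.5. None of the 29 genes passed a false discovery rate (FDR) of 0.05 in the quasi-likelihood test of edgeR, which fitted litter as a term and adjusted by Benjamini-Hochberg over all 14750 genes, against 0.386% of all genes. At an unadjusted p below 0.05 there were 4 of 29, namely *Cdkn1a* and *Ccng1* with higher and *Ddit4* and *Bax* with lower mean values in Phf6-/Y, while 10.5% of all genes passed that threshold. By limma-trend no gene of the set passed the FDR, with 3 at an unadjusted p below 0.05. By DESeq2 1 did, *Ddit4*. Over all 14750 genes DESeq2 called 153 higher and 42 lower, limma-trend 51 and 10, and edgeR 47 and 10. The median log2 fold change was -0.07 over the 29 genes and 0.00 over all genes, with 10 values above and 19 below 0, and the median absolute log2 fold change was 0.11 for the 29 genes and 0.10 for all genes.

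*Trp53* mRNA was at 112.6, 84.0 and 91.6 CPM in the 3 Phf6+/Y cortices and at 88.1, 82.6, 90.01, 91.0 and 88.8 CPM in the 5 Phf6-/Y cortices. *Mdm2*, the feedback inhibitor, was at 83.3, 87.9 and 89.5 CPM in Phf6+/Y and at 91.5, 80.5, 77.5, 86.4 and 89.9 CPM in Phf6-/Y. For both genes the Phf6-/Y and Phf6+/Y values overlapped. The log2 fold change of *Trp53* was -0.10 (95% interval -0.27 to 0.07, FDR = 0.707) and that of *Mdm2* -0.03 (95% interval -0.19 to 0.12, FDR = 0.919). *Mdm4*, which binds p53 and blocks its activation domain, had a log2 fold change of 0.16 (95% interval -0.12 to 0.45).

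*Cdkn1a*, which encodes the cyclin-dependent kinase inhibitor p21 and is the best known target in cell cycle arrest, was at 13.6, 8.40 and 11.5 CPM in Phf6+/Y and at 15.0, 16.6, 18.2, 16.47 and 12.5 CPM in Phf6-/Y cortices. The groups overlapped, with 1 Phf6-/Y cortex below the highest control, and each litter's Phf6-/Y mean was above its control, by a log2 difference of 0.30 in litter 1, 1.01 in litter 2 and 0.14 in litter 3. Its log2 fold change of 0.52 ± 0.17 (SE) had an FDR of 0.277. Without Phf6-/Y replicate 1 it was 0.68 (FDR = 0.279), and over all single libraries left out it lay between 0.25 and 0.68.

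*Ddit4*, an inhibitor of mTORC1 that is induced by p53, hypoxia, glucocorticoids and nutrient stress, was at 121.8, 110.8 and 109.7 CPM in Phf6+/Y and at 82.5, 89.5, 96.7, 102.6 and 93.0 CPM in Phf6-/Y cortices. It was the 1 gene of the 29 whose groups did not overlap, against 5.02% of all genes without overlap. The log2 fold change was -0.31 ± 0.08 (SE, FDR = 0.140), and it was lower in each of 3 litters, by -0.17, -0.25 and -0.56. These litter values come from the libraries of that fit and are not a separate result. By DESeq2 the FDR was 0.0470, the only setting of 15 in which the cortex comparison called it, and without Phf6-/Y replicate 1, the cortex with the low excitatory marker sum, the log2 fold change was -0.21 (FDR = 0.517). The part of the cell makeup of that cortex in this difference was not tested.

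*Ccng1*, which encodes cyclin G1, a p53 target that acts back on MDM2, was at 32.2, 30.5 and 40.6 CPM in Phf6+/Y and at 38.7, 35.6, 35.2, 40.6 and 47.6 CPM in Phf6-/Y cortices. The highest control reached into the Phf6-/Y values. In the fit the log2 fold change was 0.19 ± 0.08 (SE, FDR = 0.465), with higher values in 3 of 3 litters. *Bax* had a log2 fold change of -0.16 ± 0.07 (SE, FDR = 0.474), with lower values in 3 of 3 litters. *Cdkn1a*, *Ddit4*, *Ccng1* and *Bax* were named for their low p in the fit of the same libraries. Their agreement between litters is therefore no separate support. *Trp53inp1*, *Rrm2b* and *Apaf1* were also higher, and *Zmat3* and *Aen* lower, in 3 of 3 litters. The remaining tested genes differed in direction between litters.

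Among the cell death genes 10 were tested in the cortex and their log2 fold changes lay between -0.22 (*Perp*, a membrane protein of p53-dependent apoptosis) and 0.11 (*Apaf1*, the apoptosome scaffold). The 5 genes of DNA repair and nucleotide supply lay between -0.07 (*Polk*, a translesion polymerase) and 0.18 (*Rrm2b*, the p53-induced ribonucleotide reductase subunit). In the group of stress, autophagy and RNA genes, *Trp53inp1*, an autophagy-linked p53 cofactor, had a log2 fold change of 0.17 (FDR = 0.557) and *Sesn2*, an mTORC1-inhibiting sestrin, -0.14 (FDR = 0.849). Standard errors were 0.06 to 0.35 over the 29 genes, and the widest belonged to low genes such as *Perp*, with a mean of 2.15 CPM in Phf6+/Y cortex.

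**Figure D2:**
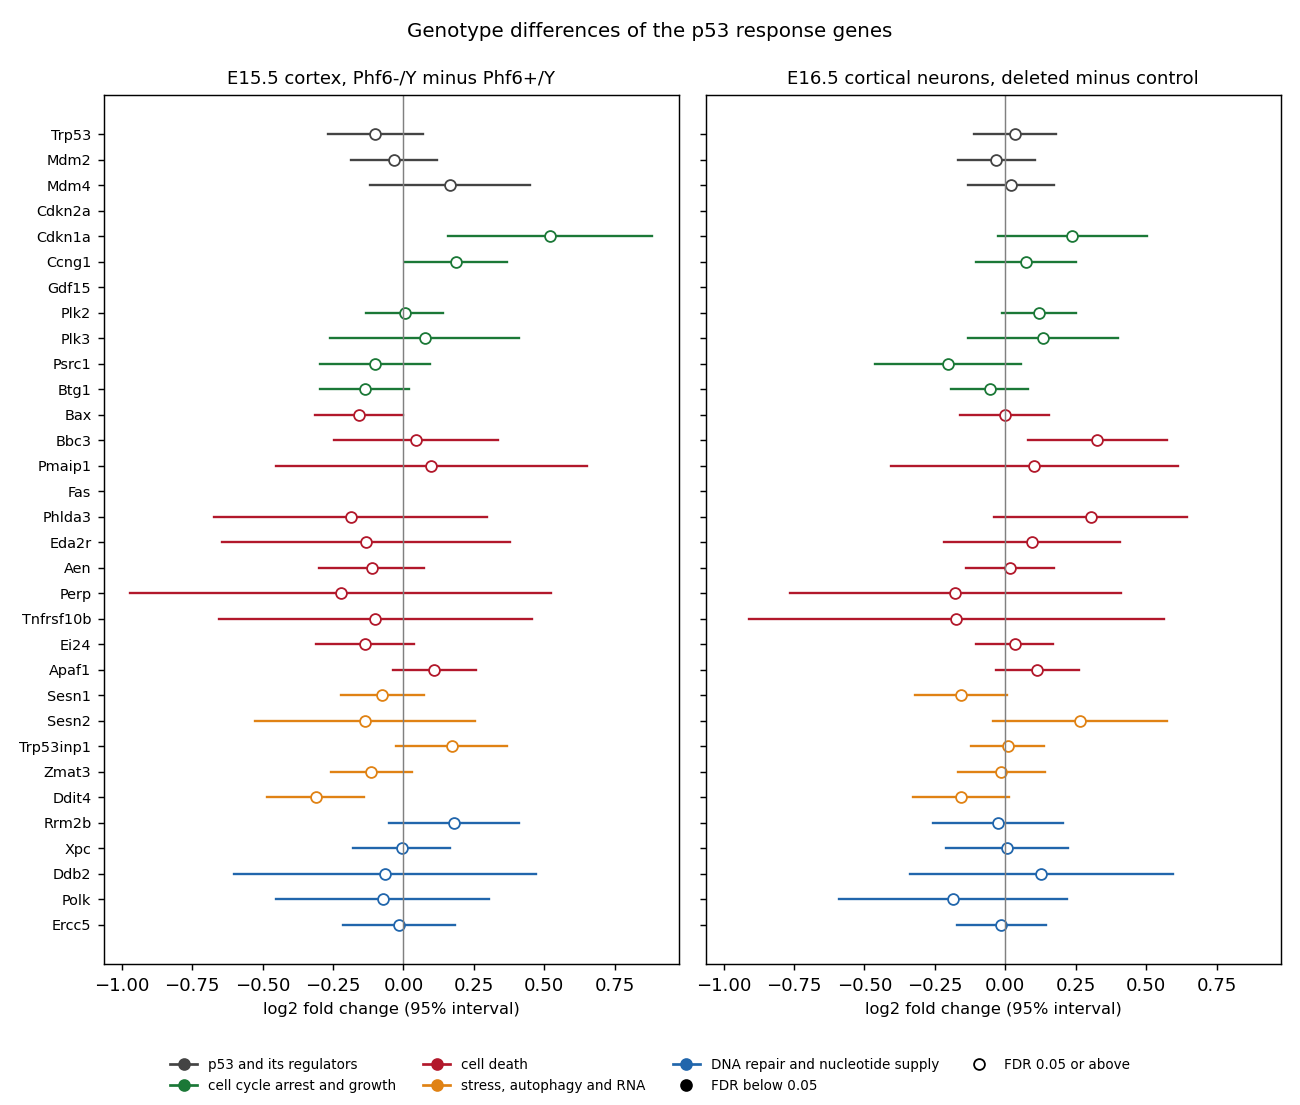
Log2 fold change (horizontal axis) with 95% interval of each tested gene for genotype, in E15.5 cortex (left) and in E16.5 cortical neurons (right), coloured by role. All points are open, since no gene had an FDR below 0.05. *Fas*, *Gdf15* and *Cdkn2a* are not drawn.

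The second comparison asked the same in E16.5 cortical neurons, within litters 4 to 6. None of 30 genes passed an FDR of 0.05 in edgeR, against 0.273% of all 13909 genes, and 1 of 30, *Bbc3*, had an unadjusted p below 0.05, against 10.3% of all genes. The count past the FDR was also 0 by limma-trend and by DESeq2, with 1 gene at an unadjusted p below 0.05 in each. The median log2 fold change was 0.01 over the 30 genes and 0.00 over all genes.

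*Trp53* was at 90.3, 88.3 and 76.5 CPM in control neurons and at 93.6, 88.4, 87.2 and 85.3 CPM in deleted neurons, and *Mdm2* at 97.3, 105.4 and 99.2 CPM in control and at 86.5, 97.1, 106.2 and 92.3 CPM in deleted neurons. Both genes overlapped between the genotypes. The log2 fold change was 0.04 (95% interval -0.11 to 0.18) for *Trp53* and -0.03 (95% interval -0.17 to 0.10) for *Mdm2*.

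*Bbc3* encodes PUMA, a BH3-only activator of apoptosis that is central to the p53-dependent death of neurons. It was at 20.03, 27.9 and 29.6 CPM in control neurons and at 42.3, 32.6, 31.1 and 32.1 CPM in deleted neurons, so that the lowest deleted culture lay above the highest control. The highest value came from litter 7, which has no control and does not enter the within-litter difference. On the log2 scale the difference was 0.33 ± 0.12 (SE, FDR = 0.316), made up of 0.69 in litter 4, 0.15 in litter 5 and 0.12 in litter 6. Without control replicate 3 the FDR was 0.0186 at a log2 fold change of 0.43. That setting called 335 higher and 159 lower of all 14077 genes, against 27 and 11 of 13909 with every neuron library. Over all single libraries left out the log2 fold change of *Bbc3* lay between 0.14 and 0.43. The value of 0.14 came without control replicate 1 or deleted replicate 2 of litter 4.

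*Sesn1*, a sestrin that restrains mTORC1 and is induced by p53, was at 59.6, 66.4 and 62.0 CPM in control and at 54.9, 58.7, 56.7 and 53.2 CPM in deleted neurons, again without overlap and here with the deleted cultures lower. Its log2 fold change was -0.16 ± 0.08 (SE, FDR = 0.499). *Bbc3* and *Sesn1* were the 2 of 30 genes without overlap, against 7.23% of all genes.

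*Ddit4* was at 124.5, 102.7 and 95.9 CPM in control and at 107.1, 95.6, 91.7 and 101.5 CPM in deleted neurons. The groups overlapped, and litter 6 went the other way from litters 4 and 5. The log2 fold change was -0.16 ± 0.08 (SE, FDR = 0.530). This gene was called without control replicate 3 (-0.28, FDR = 0.0109) and without deleted replicate 4 (-0.28, FDR = 0.0278), which are the libraries of litter 6. Calls over all genes also rose there, to 335 higher and 159 lower without control replicate 3 and to 256 and 127 without deleted replicate 4. Without control replicate 1 or deleted replicate 2 the value of *Ddit4* was -0.04. *Cdkn1a* was at 24.8, 13.2 and 13.6 CPM in control and at 22.3, 24.7, 15.8 and 19.2 CPM in deleted neurons. The control culture of litter 4 was the highest of all, and the log2 fold change was 0.24 ± 0.12 (SE, FDR = 0.539).

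The genotype effects of the 2 tissues did not differ past the FDR for any of 30 genes in a test of the difference over all 15 libraries (lowest FDR 0.954), against 0.0133% of all 15001 genes. At an unadjusted p below 0.05 there were 0 of 30 in that edgeR test, while of all 15001 genes 341 had positive and 438 negative differences at that threshold. limma-trend and DESeq2 were not run for it. For *Cdkn1a* the neuron effect minus the cortex effect was -0.28 (95% interval -0.77 to 0.21) and for *Bbc3* 0.27 (95% interval -0.14 to 0.68) on the log2 scale. The intervals leave room for differences of that size.

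**Figure D3:**
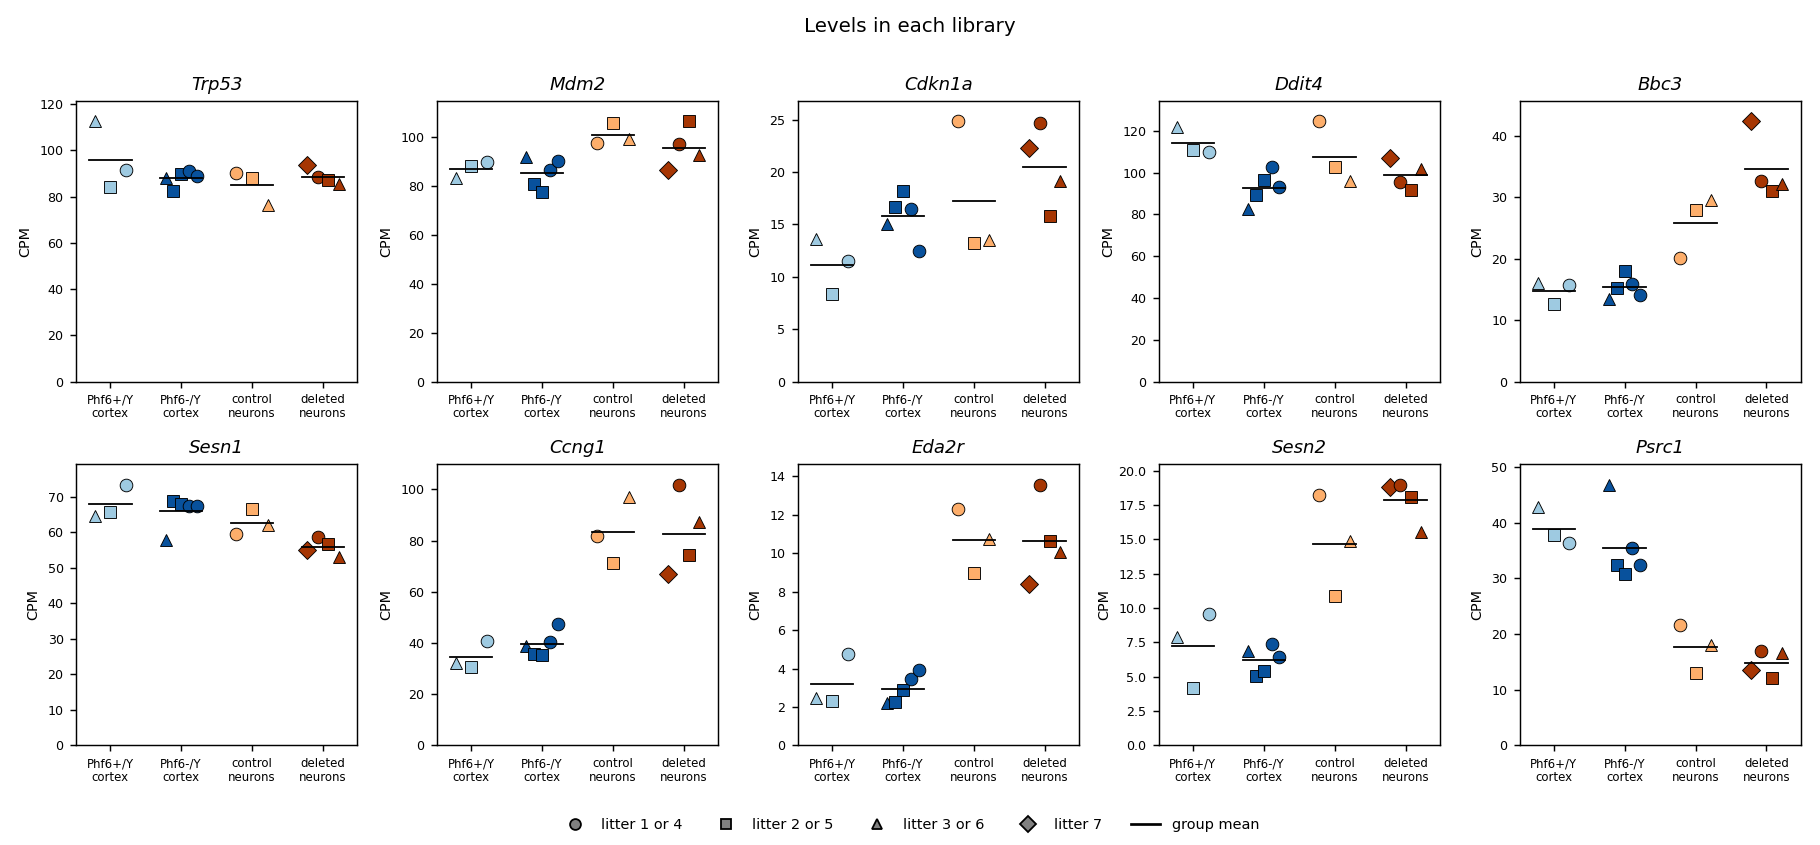
CPM (vertical axes, from 0) in each of the 15 libraries for 10 genes, by group, with the litter as the symbol and the group mean as a line. *Cdkn1a*, *Ddit4*, *Bbc3* and *Sesn1* show the overlaps described, and *Ccng1*, *Eda2r*, *Sesn2* and *Bbc3* sit higher and *Psrc1* lower in neurons than in cortex in both genotypes.

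Genes of the wider pathway that are no members of the set were read in the same fits. Of 18 other p53 targets, 24 genes of damage signalling and double-strand break repair, 22 genes of nucleotide excision and other repair (21 in neurons) and 16 members or modulators of the p53 family (15 in neurons), 0 passed the FDR in the cortex and 0 in the neurons, with 1, 1, 0 and 1 in the cortex and 2, 2, 0 and 2 in the neurons at an unadjusted edgeR p below 0.05. Their median log2 fold changes lay between -0.05 and 0.06 in both tissues. limma-trend and DESeq2 counts were not taken for these lists. Of all genes tested for genotype, 10.5% (cortex) and 10.3% (neurons) had an edgeR p below 0.05 before adjustment. These shares are those to set beside each count at that threshold in this paragraph. Of 7 markers of proliferating cells, 0 passed the FDR for genotype in either tissue, with 3 in the cortex and 4 in the neurons at an unadjusted edgeR p below 0.05, and their part in the genotype values of the p53 genes was not tested. Some targets of p53 answer other stress pathways as well, and genes of the integrated stress response, which include the transcription factors *Atf4* and *Ddit3*, had 0 of 12 past the FDR in neurons and 6 of 12 at an unadjusted edgeR p below 0.05, with a median of 0.17. In the cortex 0 of 11 passed the FDR and 4 of 11 had an unadjusted edgeR p below 0.05, all 4 with negative log2 fold changes, and the median was -0.09. Immediate-early genes, which respond to neuronal activity and to stress, had 0 of 10 past the FDR in neurons and 6 of 10 at an unadjusted edgeR p below 0.05, with a median of 0.40, and 0 of 8 and 1 of 8 in the cortex, with a median of -0.09.

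Cultured neurons differed from dissected cortex in more of the p53 genes. Age, Nes-cre, dissociation, culture and litter all change between these samples and cannot be told apart. In the controls 14 of 30 genes were higher in neurons and 2 were lower at an FDR of 0.05 in edgeR, against 24.7% of all 14320 genes higher and 26.4% lower. The 14 include *Fas*, which had 2, 0 and 0 counts in the Phf6+/Y cortices. It passed the filter only through the neurons where it is high, so its call is not a separate result. In the *Phf6*-deleted samples 14 of 29 were higher and 3 lower, against 28% of all 14416 genes higher and 31.1% lower. The shares of all genes are also those to set beside the counts of smaller groups and lists below. These 2 comparisons share no library, although the 2 genotypes come from the same litters apart from litter 7. In both comparisons 11 of 29 genes were higher and 2 lower, against 21.7% and 23.7% of the 14168 genes tested in both. The median log2 difference of the tested p53 genes was 0.25 in controls and 0.28 in deleted samples, and that of all genes -0.03 in each.

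This split depended on the scaling. With library totals in place of TMM the median of all genes moved by -0.14 in controls and -0.16 in deleted samples, and all genes called went from 3541 higher and 3777 lower to 2459 and 5003 in controls and from 4041 and 4490 to 2640 and 5986 in deleted samples. The p53 genes called went to 9 higher, *Fas* among them, and 5 lower in controls and to 9 higher and 7 lower in deleted samples. Relative to the median of all genes, the median of the p53 genes was 0.28 under both scalings in controls, and 0.31 and 0.32 in deleted samples. In both comparisons together, 6 of the 11 genes remained higher with library totals, *Ccng1*, *Plk2*, *Sesn2*, *Bbc3*, *Aen* and *Eda2r*, and these 6 and the lower genes *Btg1* and *Psrc1* were called in all 11 settings of the control and all 15 of the deleted comparison.

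**Figure D4:**
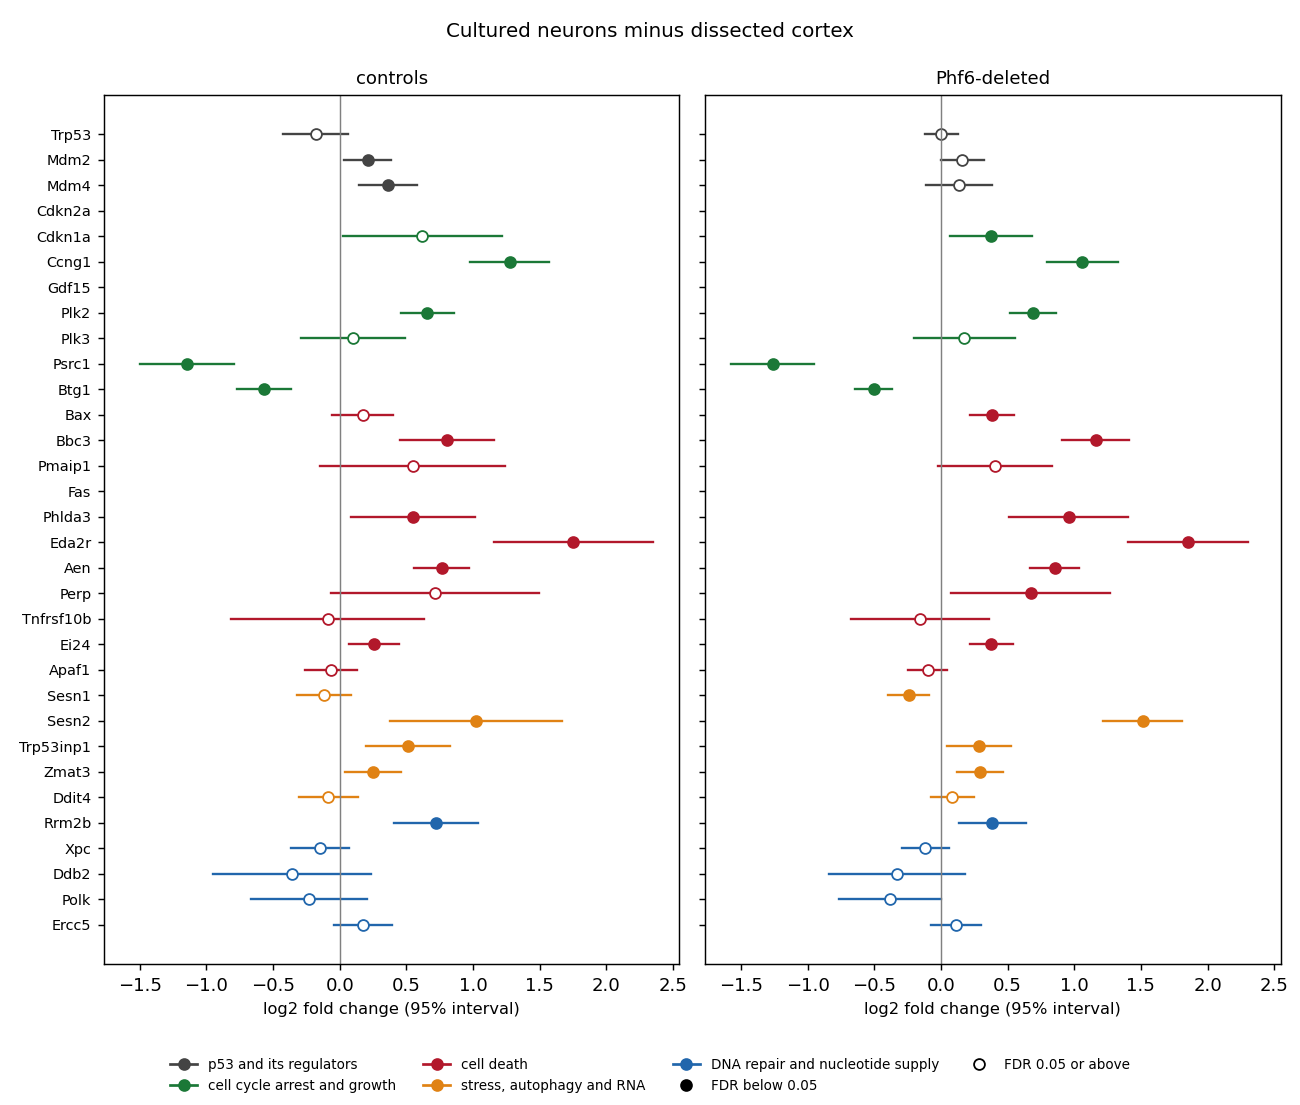
Log2 fold change (horizontal axis) with 95% interval of each gene, cultured neurons minus dissected cortex, in controls (left) and *Phf6*-deleted samples (right), with filled points for an FDR below 0.05 and colours for roles. *Fas*, *Gdf15* and *Cdkn2a* are not drawn. The filled points on the right of 0 include *Eda2r*, *Sesn2*, *Ccng1*, *Bbc3*, *Aen* and *Plk2* in both panels.

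Of p53 and its regulators, *Trp53* did not pass the test in either comparison, with log2 differences of -0.18 (FDR = 0.199) in controls and 0.00 (FDR = 0.957) in deleted samples under TMM, and of -0.32 (FDR = 0.0288) and -0.15 (FDR = 0.0303), which did pass, under library totals. *Mdm2* and *Mdm4* were higher in control neurons, by 0.21 (FDR = 0.0494) and 0.36 (FDR = 0.00821), and with library totals neither passed the test, at 0.07 (FDR = 0.517) and 0.22 (FDR = 0.0758). In deleted samples they were at 0.16 (FDR = 0.0788) and 0.14 (FDR = 0.327). The call for *Mdm2* in controls was lost without any 1 of the 6 libraries, with an FDR of 0.0549 to 0.138.

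In the group of cell cycle arrest and growth, *Ccng1* was at 81.9, 71.3 and 97.1 CPM in control neurons and at 67.1, 101.7, 74.3 and 87.2 CPM in deleted neurons. Every culture was above every cortex, where the highest value was 47.6 CPM. Separation of this kind was common between the 2 sources, here and for the genes below. In controls 60.5% of all genes did not overlap, and of the 30 genes of the set 14 lay above and 3 below. In deleted samples 48.9% of all genes did not overlap, and of 29 genes 10 lay above and 2 below. The log2 difference of *Ccng1* was 1.27 ± 0.14 (SE, FDR = 1.09e-05) in controls and 1.06 ± 0.12 (SE, FDR = 1.34e-05) in deleted samples. *Plk2*, a kinase induced by p53 and by neuronal activity, was higher by 0.66 and 0.69. *Cdkn1a* was higher by 0.38 in deleted samples (FDR = 0.0357) and at 0.62 in controls (FDR = 0.0778), with a wide spread among the control neurons. Leaving out control neuron replicate 2 or 3 brought the control FDR of *Cdkn1a* to 0.0375 or 0.0484, and leaving out Phf6-/Y cortex replicate 1 or 5 or deleted neuron replicate 1 or 2 brought the FDR in deleted samples to between 0.0542 and 0.133. The deleted cortices include 2 foetuses each of litters 1 and 2, and with 1 library per litter *Cdkn1a* was at 0.35 (FDR = 0.0702), and with library totals at 0.22 (FDR = 0.189).

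*Psrc1* encodes a microtubule-associated protein of the mitotic spindle that p53 can regulate. It was at 42.9, 37.8 and 36.3 CPM in Phf6+/Y cortex and at 46.8, 32.4, 30.8, 35.5 and 32.4 CPM in Phf6-/Y cortex. In neurons it was at 21.7, 13.1 and 18.1 CPM in controls and at 13.6, 17.1, 12.2 and 16.53 CPM in deleted cultures, below every cortex. The log2 difference was -1.15 ± 0.16 (SE, FDR = 8.81e-05) in controls and -1.26 ± 0.14 (SE, FDR = 9.54e-06) in deleted samples. *Btg1*, an antiproliferative factor, was lower by -0.57 and -0.50. In the same comparisons 7 of 7 markers of proliferating cells were lower in neurons, with summed levels of 1119 to 1561 CPM in cortices and 291 to 507 CPM in neurons and no marker at 0, and their part in these differences was not tested.

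Among cell death genes, 6 of 11 in controls and 7 of 10 in deleted samples were higher in neurons at an FDR of 0.05. Of all genes 24.7% and 28% were higher in these comparisons. The 6 include *Fas*, which passed the filter only through the neurons. In either comparison 0 cell death genes were lower, against 26.4% and 31.1% of all genes. There were 0 lower at an unadjusted edgeR p below 0.05 too, and 0 lower under limma-trend and under DESeq2. With library totals *Apaf1* was lower in deleted samples (-0.25, FDR = 0.00674). *Eda2r*, a TNF receptor family member, was at 2.47, 2.30 and 4.76 CPM in Phf6+/Y and at 2.23, 2.26, 2.89, 3.44 and 3.93 CPM in Phf6-/Y cortex. In neurons it was at 12.3, 8.998 and 10.7 CPM in controls and at 8.37, 13.6, 10.6 and 10.1 CPM in deleted cultures. This was the largest log2 difference among the genes called in both comparisons, 1.75 ± 0.28 (SE, FDR = 0.000181) in controls and 1.85 ± 0.21 (SE, FDR = 8.34e-06) in deleted samples. The groups did not overlap.

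*Bbc3* was at 16.1, 12.6 and 15.6 CPM in Phf6+/Y and at 13.4, 15.3, 18.1, 15.9 and 14.1 CPM in Phf6-/Y cortex, and the neuron values given above were all higher than these. The log2 difference was 0.80 ± 0.16 (SE, FDR = 0.00112) in controls and 1.16 ± 0.12 (SE, FDR = 3.27e-06) in deleted samples. *Aen*, an apoptosis-enhancing nuclease, was higher by 0.77 and 0.85, and *Ei24*, an endoplasmic reticulum protein linked to autophagy, by 0.26 and 0.38. *Phlda3*, an inhibitor of AKT, was higher by 0.55 (FDR = 0.0468) and 0.96 (FDR = 0.00138). The calls in controls were lost for *Ei24* without Phf6+/Y cortex replicate 1 or 2 or control neuron replicate 1, and for *Phlda3* without Phf6+/Y cortex replicate 1 or 3 or control neuron replicate 1 or 3. In deleted samples *Bax* was higher by 0.38 (FDR = 0.000812) and *Perp* by 0.68 (FDR = 0.0498), the latter call being lost without Phf6-/Y cortex replicate 1, 2, 4 or 5 or deleted neuron replicate 2 or 3, and with 1 library per litter (0.59, FDR = 0.109) or library totals (0.52, FDR = 0.124). *Fas*, in the control count, entered it through the neurons that gave it the counts to pass the filter.

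In the group of stress, autophagy and RNA genes, *Sesn2* was at 7.92, 4.20 and 9.59 CPM in Phf6+/Y and at 6.89, 5.02, 5.41, 7.42 and 6.44 CPM in Phf6-/Y cortex. In neurons it was at 18.3, 10.9 and 14.9 CPM in controls and at 18.8, 18.96, 18.1 and 15.6 CPM in deleted cultures, above every cortex. The log2 difference was 1.02 ± 0.29 (SE, FDR = 0.0136) in controls and 1.51 ± 0.14 (SE, FDR = 1.53e-06) in deleted samples. Its paralogue *Sesn1* was lower by -0.24 (FDR = 0.00955) in deleted samples and at -0.12 (FDR = 0.306) in controls, where it was called with library totals (-0.26, FDR = 0.0341). *Trp53inp1* was higher by 0.51 and 0.28, and *Zmat3*, an RNA-binding protein that regulates splicing downstream of p53, by 0.25 and 0.29. *Sesn2* is also induced by ATF4, and in the same fits genes of the integrated stress response were higher in 6 of 12 and lower in 2 of 12 in controls and higher in 8 of 12 and lower in 2 of 12 in deleted samples. Their part was not tested.

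Calls of this group also moved with single libraries. That of *Trp53inp1* was lost in controls without Phf6+/Y cortex replicate 1 (FDR = 0.0514), and in deleted samples without Phf6-/Y cortex replicate 1, 2, 3 or 4 or deleted neuron replicate 2 or 4 (FDR = 0.0630 to 0.153). That of *Zmat3* in controls was lost without Phf6+/Y cortex replicate 2 or 3 or control neuron replicate 1 or 3 (FDR = 0.0948 to 0.161).

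Of DNA repair and nucleotide supply, *Rrm2b* was higher in neurons by 0.72 (FDR = 0.00107) in controls and by 0.39 (FDR = 0.0117) in deleted samples. With library totals it was still called in controls, but not in deleted samples (0.23, FDR = 0.0977). The damage recognition factors *Xpc* and *Ddb2*, the nuclease *Ercc5* and the polymerase *Polk* did not pass the test in either comparison under TMM, with log2 differences of -0.38 to 0.18. With library totals *Xpc* was lower in controls (-0.29, FDR = 0.0285) and in deleted samples (-0.27, FDR = 0.0123), and *Polk* in deleted samples (-0.54, FDR = 0.0196). Outside the set, damage signalling and double-strand break repair genes, many of which are mostly expressed in dividing cells, were lower for 12 of 24 and higher for 1 in controls and lower for 17 in deleted samples, while 5 of 18 other p53 targets were higher and 5 lower in controls and 7 higher and 6 lower in deleted samples.

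Some genes that did not pass the test over all libraries passed it when 1 was left out. These were *Bax* in controls without control neuron replicate 3 (FDR = 0.0330) and, in deleted samples, *Plk3* without Phf6-/Y cortex replicate 1 (0.36, FDR = 0.0206), *Polk* without Phf6-/Y cortex replicate 3 (FDR = 0.0495) and also with 1 library per litter (-0.53, FDR = 0.0372), and *Mdm2* (FDR = 0.0330) and *Pmaip1*, which encodes the BH3-only protein NOXA (FDR = 0.0476), without deleted neuron replicate 1.

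The cell makeup of the 2 sources differed as well. In both comparisons markers of radial glia were lower in neurons for 6 of 6 genes, with sums of 1312 to 1648 CPM in cortices and 371 to 515 CPM in neurons and no marker at 0. Markers of endothelial cells were lower for 6 of 6 genes, with sums of 135 to 294 CPM and 3.74 to 7.83 CPM, and *Cldn5* was at 0 in the control neurons. General neuron markers were higher for 4 of 5 genes in controls and 5 of 5 in deleted samples, with sums of 4432 to 5618 CPM in cortices and 7438 to 8582 CPM in neurons and no marker at 0. Markers of neuron subtypes did not all follow. In both comparisons markers of excitatory cortical neurons were higher for 3 of 5 genes and lower for 2. Those of GABAergic neurons were lower for 5 of 5, with sums of 473 to 637 CPM in cortices and 100 to 186 CPM in neurons. The part of these cell types in the differences of the p53 genes was not tested.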

How the data were processed

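The authors made stranded polyA libraries, mapped read pairs to mm10 (Rsubread), summed them per Entrez gene (featureCounts), and deposited raw counts without normalization, for 15 libraries. Total counts of 16858007 to 31157700 per library set the precision of low genes. The strand setting of the counting is not given in the sources used here. The 15 per-sample files equal the columns of the series table. Of 27179 entries, 1029 without identifier (0.462% of counts), 875 identifiers without a match in the RefSeq annotation of GRCm38, 835 pseudogenes, 35 rRNA genes and 1273 predicted genes were left out, and 23132 were kept. *Trp53* and *Mdm4* have pseudogenes, and *Zmat3*, *Ddb2*, *Plk3* and *Apaf1* overlap other counted genes, so their reads may not be fully separated.

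Genes were filtered with filterByExpr (defaults) and tested with edgeR 4.0.16 in R 4.3.3 (TMM, robust quasi-likelihood F tests, Benjamini-Hochberg adjustment over all genes tested). Litter was a term in the genotype fits and in the test of their difference between tissues. The fits of neurons against cortex had no litter term, since each litter belongs to 1 tissue. There the 2 Phf6-/Y cortices each of litters 1 and 2 counted as separate samples. With 1 library per litter the calls of *Cdkn1a* and *Perp* in deleted samples were lost. Litters are given in the labels, so the pairing is by litter. Deviations from group means correlated by -0.122 to 0.475 between genotypes of 1 litter in cortex and by 0.143 to 0.315 in neurons. Between genotypes of different litters they correlated by -0.44 to 0.132 in cortex and by -0.3 to 0.265 in neurons, so the ranges overlap. Each library is 1 foetus, foetuses of a litter share a mother, and p-values measure the spread between these samples. limma 3.58.1, DESeq2 1.42.0, RLE factors, library totals, filters, no litter term and leaving out libraries were alternatives. The fits were tested on simulated counts. Every library was counted as a separate sample, since no 2 agreed within sampling noise. The genes, lists and tests were chosen with earlier results of these data known. Values in every library are given for *Trp53*, *Mdm2* and *Cdkn1a*, for the 3 genes of lowest p for genotype in each tissue and for the 5 genes of largest difference called in both neuron-cortex comparisons. *Bax* is named for genotype in the cortex because its unadjusted edgeR p was below 0.05 there. Other genes are given as examples of their group.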

Additional observations from a re-analysis of the deposited data

Results flagged for a closer look

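Of 64 sets of replicates tested for 1 value far from the others, by Dixon's criterion at the 95% level, 7 were marked, and chance marks about 1 in 20. In the Phf6-/Y cortex, replicate 1 was apart for *Sesn1*, at 57.8 CPM against 67.3 to 68.8 CPM in the other 4, for *Plk2*, at 115.7 CPM against 133.8 to 140 CPM, and for *Plk3*, at 19.4 CPM against 10.1 to 12.7 CPM. That cortex also had the low sum of excitatory neuron markers. In deleted neurons, replicate 1 (litter 7) was apart for *Bbc3*, at 42.3 CPM against 31.1 to 32.6 CPM in the other 3, and replicate 3 for *Ei24*, at 173 CPM against 152 to 155 CPM. *Cdkn2a* was at 0.102 CPM in Phf6-/Y cortex replicate 4 and at 0.0493 CPM in deleted neuron replicate 1, with 0 counts in the other libraries of these groups, which rests on 3 counts and 1 count.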

How the results depend on the processing

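Without the litter term, that is with no replicate block, 0 genes of the set passed the FDR in either tissue, with 2 in the cortex and 1 in the neurons at an unadjusted edgeR p below 0.05, and calls over all genes fell from 57 to 1 in the cortex and from 38 to 1 in the neurons. In that unpaired fit *Ccng1* (-0.0134) and *Bax* (0.0484) changed sign in the neurons. DESeq2 called 1 gene of the set lower in the cortex, and 153 higher and 42 lower over all genes. With single libraries left out, 0 to 1 genes were called higher and 0 to 1 lower in neurons, and the log2 fold change ranged in the cortex from -0.165 to 0.00580 for *Trp53*, from -0.0908 to 0.0493 for *Mdm2* and from -0.142 to 0.169 for *Bbc3*, and in neurons from -0.0497 to 0.192 for *Ccng1*, from -0.0994 to 0.0525 for *Bax*, from -0.0297 to 0.0728 for *Trp53* and from -0.0575 to 0.00316 for *Mdm2*. Between neurons and cortex, leaving out libraries gave ranges of -0.0823 to 0.213 for *Plk3*, -0.0842 to 0.00939 for *Apaf1*, -0.277 to 0.145 for *Tnfrsf10b* and -0.202 to 0.00794 for *Ddit4* in controls, and -0.0211 to 0.0258 for *Trp53* in deleted samples. With library totals, 9 genes were higher and 5 lower in controls and 9 higher and 7 lower in deleted samples, and the sign turned for *Plk3* (-0.0404) in controls and for *Trp53* (-0.151), *Mdm4* (-0.0184), *Ddit4* (-0.0678) and *Ercc5* (-0.0383) in deleted samples. The cause of these changes was not tested, apart from the common shift given with the scaling. Calls over all genes ranged from 7 to 81 in the cortex and from 16 to 494 in the neurons with single libraries left out.

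With 3 control libraries in each tissue and standard errors of up to 0.35 in the cortex and 0.59 in the neurons, modest changes of the low genes were not detectable at this depth. Modest changes of well-counted genes could be missed too. *Ddit4* in the cortex, with a mean of 114.1 CPM in Phf6+/Y and a log2 fold change of -0.31 ± 0.08 (SE), had an edgeR FDR of 0.140. The levels are of mRNA, and p53 protein, its modification and DNA damage were not measured.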
